A study of Mus musculus with 14 samples.

Results

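The genes described here are 34 contractile, cytoskeletal and adhesion genes of smooth muscle and of other cells that pull on actin filaments, out of 18193 genes with a probe set on the array. They were taken from a fixed list, and each was read from its brightest probe set, the one with the highest mean over all 14 arrays. By role, 12 were contractile proteins of smooth muscle, 5 were myosins, tropomyosins, calponins and transgelins of nonmuscle cells, 8 were actin crosslinkers and focal adhesion proteins, 7 were LIM domain proteins and 2 were transcription regulators. Of the 34 genes, 32 reached a signal of 200 on at least 1 array and were tested. Myh11 and Myocd did not.

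Total RNA of 12 osteosarcomas and of 1 tumour labelled rhabdomyosarcoma was profiled, every tumour having arisen in a p53+/- mouse, which carries a single working copy of the p53 tumour suppressor. The control was untreated mc3T3, an osteoblast line of mouse that does not form tumours, cultured in alpha-MEM with serum. The labels give neither age, strain and sex nor whether each osteosarcoma is from its own animal, so p-values measure the spread between these samples. The line and the tumour labelled rhabdomyosarcoma were 1 array each, so every test against them borrowed its spread from the 12 osteosarcomas. The tumours arose in vivo in p53+/- mice and the line grew in culture, and the effects of genotype and of growth conditions cannot be told apart. In bulk tissue, fewer cells of a type and less RNA per cell cannot be told apart either.

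Smooth muscle cells shorten when myosin light chain kinase (Mylk) phosphorylates the regulatory light chain (Myl9), which lets myosin pull on filaments of smooth muscle actins (Acta2, Actg2) that are decorated with tropomyosin, calponin, caldesmon and transgelin. Fibroblasts turn on part of the same set when they become myofibroblasts, and cultured cells on stiff plastic assemble stress fibres anchored through focal adhesions. Many of these genes are targets of serum response factor (Srf), which binds a DNA element called the CArG box together with a partner, either myocardin (Myocd) in muscle or the myocardin-related factors Mrtfa and Mrtfb, which enter the nucleus when free actin monomer runs low.

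Promoter windows running from 250 bases before to 50 bases after the annotated start were taken from RefSeq (GRCm38.p6) and searched for the CArG box, a run of A and T letters between a CC and a GG, which reads the same on both strands. A window was found for 28 of the 34 genes. Tagln, Actg2, Myh11, Csrp2, Tgfb1i1 and Myocd had no entry. The box was present in 7 of the 28 genes (25.0%), Cnn2, Fhl1, Fhl2, Filip1l, Myl9, Srf and Vcl, against 488 of 27025 genes with a window (1.81%). Allowing 1 C or G inside the box added Acta2, Flnc and Lpp, giving 10 of 28 genes (35.7%) against 11.3% of all genes. These are matches of letters, not measured binding, and the list was drawn from a field in which Srf targets are known. The sequences are shown because the box is the element that Srf binds and the array values played no part in the search. Most of the genes with a window did not hold it. Those of Srf and Acta2 are the 250 bases upstream of the start, on the minus strand, at chr17:46556163-46556412 and chr19:34255374-34255623, written in the direction of transcription, and the box is in capitals.
Srf: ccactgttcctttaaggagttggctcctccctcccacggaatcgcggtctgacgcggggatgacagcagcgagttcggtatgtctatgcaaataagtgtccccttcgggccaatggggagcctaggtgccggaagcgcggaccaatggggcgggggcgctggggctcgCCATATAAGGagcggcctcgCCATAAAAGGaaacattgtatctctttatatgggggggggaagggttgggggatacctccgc
Acta2: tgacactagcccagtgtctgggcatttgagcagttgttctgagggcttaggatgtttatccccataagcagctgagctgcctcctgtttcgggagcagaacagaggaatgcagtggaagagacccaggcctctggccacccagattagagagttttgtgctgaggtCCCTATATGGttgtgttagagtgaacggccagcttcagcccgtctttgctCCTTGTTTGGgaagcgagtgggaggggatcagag

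The capitals in Srf, the gene of the factor itself, are a pair of exact boxes that begin 82 and 62 bases upstream of the start. Both capitalised stretches in Acta2 carry 1 C or G inside and begin 84 and 34 bases upstream. Apart from those said not to be shown, the boxes of the other genes are given with 15 bases of flank on each side. Myl9 held an exact box 161 bases upstream (chr2:156775303-156775312, plus strand) and a second with 1 G inside 99 bases upstream. In Cnn2 (chr10:79988544-79988553, plus strand) and Filip1l (chr16:57549180-57549189, plus strand) the same 10 letters lay 56 and 62 bases upstream, and Vcl held them 227 bases upstream (chr14:20929171-20929180, plus strand). Fhl1 (chrX:56779581-56779590, plus strand) and Fhl2 (chr1:43163983-43163992, minus strand) held a box 102 and 31 bases upstream. A second Fhl2 start held another 96 bases upstream (chr1:43196848-43196857, minus strand), which is not shown. The Lpp match begins at base 4 after the start and is not shown. The stretch in Flnc (chr6:29432990-29432999, plus strand) had 1 C inside and began 163 bases upstream.
Myl9: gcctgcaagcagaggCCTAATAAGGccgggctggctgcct
Myl9, with 1 G inside: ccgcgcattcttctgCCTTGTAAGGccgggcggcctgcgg
Cnn2: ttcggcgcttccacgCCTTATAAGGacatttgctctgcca
Filip1l: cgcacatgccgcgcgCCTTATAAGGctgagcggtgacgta
Vcl: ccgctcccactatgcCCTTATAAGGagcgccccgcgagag
Fhl1: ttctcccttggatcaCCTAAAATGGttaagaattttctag
Fhl2: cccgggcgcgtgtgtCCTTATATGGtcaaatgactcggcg
Flnc: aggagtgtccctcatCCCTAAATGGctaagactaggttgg

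Array signals are linear intensities scaled to a common trimmed mean of 500. The median signal of an array was 67.1 to 111.1, and 33.8% to 40.4% of probe sets reached 200. The ratio of the 3' to the 5' beta-actin signal, which rises as RNA degrades, ran from 1.42 to 2.13 over the osteosarcomas, with mc3T3 at 1.32 and the tumour labelled rhabdomyosarcoma at 1.24. Marker lists were read as the mean log2(signal + 30) of their genes. The osteoblast list stood at 12.5 to 13.375 in the osteosarcomas, at 9.567 in the line and at 7.996 in the tumour labelled rhabdomyosarcoma, so the line carried less of this list than any osteosarcoma. In the tumour labelled rhabdomyosarcoma the myogenic list, at 6.043, was below all 12 osteosarcomas (6.358 to 8.402), with Myod1 at a signal of 39.4, Myog at 65.9 and Des at 88.6, so its defining muscle markers were near the floor. Its skeletal muscle list, at 7.301, lay within the osteosarcoma range of 6.538 to 13.402. Osteosarcomas 6 and 9 held the highest skeletal muscle levels, 13.402 and 12.423, against at most 10.724 in the other 10.

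Set against mc3T3, most of the contractile and adhesion genes had lower signals in the osteosarcomas, and 8 of 32 passed the test. The signal of mc3T3 lay above all 12 osteosarcomas for 24 of the 32 tested genes, where 21.0% of all genes tested did, and below all 12 for 1, Filip1l, where 21.5% of all genes did. A gene was called at an adjusted p under 0.05 and a difference of at least 1 on the log2(signal + 30) scale, a scale that understates the change of low genes. By this rule 7 of 32 were lower in the osteosarcomas (4.58% of all genes tested were) and 1 was higher (8.59% of all genes). The 7 were Actg2, Cnn1, Lmod1, Myh10, Tgfb1i1, Zyx and Vcl. Lmod1 reached the filter of 200 through mc3T3 alone and so had to be lower. Among genes that reached 200 in a tumour, 6 of 31 were called lower, where 3.95% of all such genes were, and the median difference of the 31 was -1.02. The median difference over the 32 genes was -1.08, against -0.02 over all 11815 genes, and 30 of the 32 differences were negative, where 51.2% of all genes had a negative difference.

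**Figure D1:**
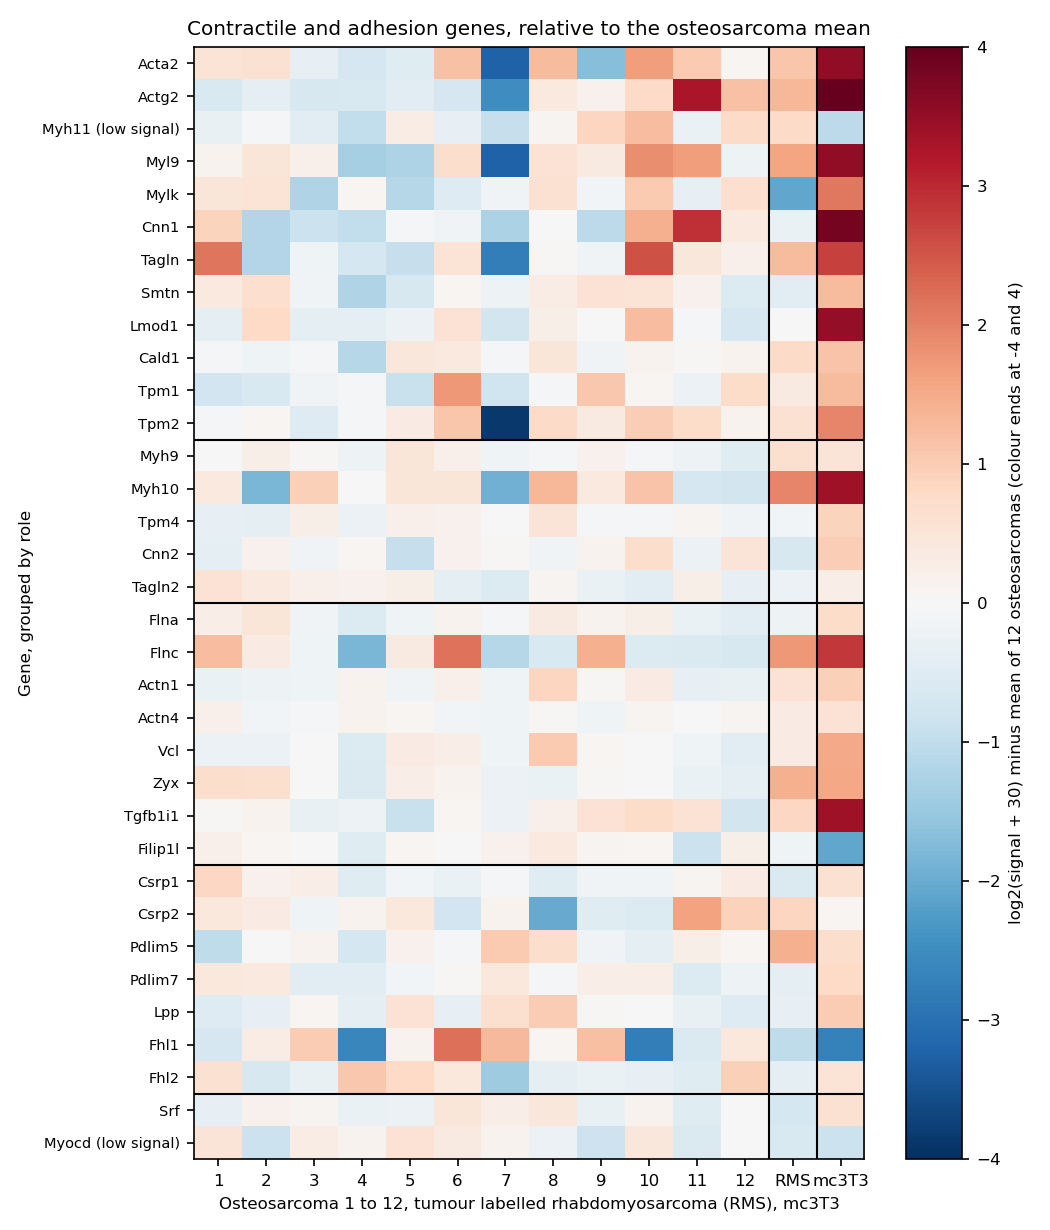
Heat map of all 34 genes (rows, grouped by role) on the 14 arrays (columns), with colour giving log2(signal + 30) minus the mean of the 12 osteosarcomas for that gene and the untested Myh11 and Myocd marked as low. The column of mc3T3 is higher than every osteosarcoma for 24 of the 32 tested genes, and osteosarcoma 7 is the lowest of 12 for 10 of them.

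Both smooth muscle actins had mc3T3 signals above all 12 osteosarcomas. Acta2, the smooth muscle alpha-actin used as the marker of myofibroblasts, had a signal of 61899.2 in mc3T3. In osteosarcomas 1 to 12 it read 7675.0, 7967.7, 4175.0, 3279.9, 3697.3, 11827.9, 522.1, 12712.9, 1574.7, 16656.2, 10821.4 and 5566.6, and in the tumour labelled rhabdomyosarcoma 11215.3. The line stood 3.72 times above the highest osteosarcoma, and the osteosarcomas spanned a 31.9-fold range, 10.6-fold without osteosarcoma 7. With that spread the difference of -3.56 ± 1.29 (SE) did not pass the test over all genes (adjusted p = 0.0858, range over the alternatives 0.000402 to 0.247). Without osteosarcoma 7 it was -3.27 and passed (adjusted p = 0.032). The brightest Acta2 probe set carries the maker's suffix for probes that can match several transcripts, and closely similar actins could add to it. The other Acta2 probe sets read 616.4 and 276.9 in mc3T3 and at most 35.6 and 66.8 in the osteosarcomas, differences of -4.11 ± 0.35 and -2.52 ± 0.47. Both reached the signal filter through mc3T3 alone and so had to be lower, and these values are given as a description. The low end of the range above, an adjusted p of 0.000402, came from the mean over probe sets. That mean takes in both of them, so it adds no support.

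Actg2, the gamma-actin of visceral smooth muscle, read 8193.3 in mc3T3 and 539.3 in the tumour labelled rhabdomyosarcoma. The osteosarcomas ran from 10.4 in osteosarcoma 7 through a median of 140.85 to 2167.2 in osteosarcoma 11, whose value was 4.57 times that of the next tumour. The groups did not overlap, and the difference of -5.19 ± 1.27, a 36.4-fold lower level, was the largest of the 32 (adjusted p = 0.0136). The call was lost with the 4 osteosarcomas of c identifiers alone (-5.22, adjusted p = 0.197; range over the alternatives 0.000986 to 0.197).

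Cnn1, the calponin of differentiated smooth muscle, which binds actin and slows myosin, read 1224.0 in mc3T3. The osteosarcomas had a lowest signal of 6.5, a median of 52.4 and a highest of 632.9, again in osteosarcoma 11, and no osteosarcoma reached the line. The difference was -3.83 ± 1.15 (adjusted p = 0.0396), a call that sat close to its threshold. Leaving out osteosarcoma 3, 5, 6, 8 or 9 gave adjusted p = 0.0524, 0.0511, 0.0516, 0.0519 and 0.0508, and leaving out both 6 and 9 gave 0.0651. The call was lost in 9 of 23 alternatives, over which the adjusted p ranged from 0.00491 to 0.281. Lmod1, leiomodin, which nucleates actin filaments in smooth muscle, read 612.2 in mc3T3, 4.3 to 103.1 in the osteosarcomas (median 21.65) and 26.5 in the tumour labelled rhabdomyosarcoma. It passed the signal filter through mc3T3 alone and so had to differ (-3.50 ± 0.58, adjusted p = 0.001).

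**Figure D2:**
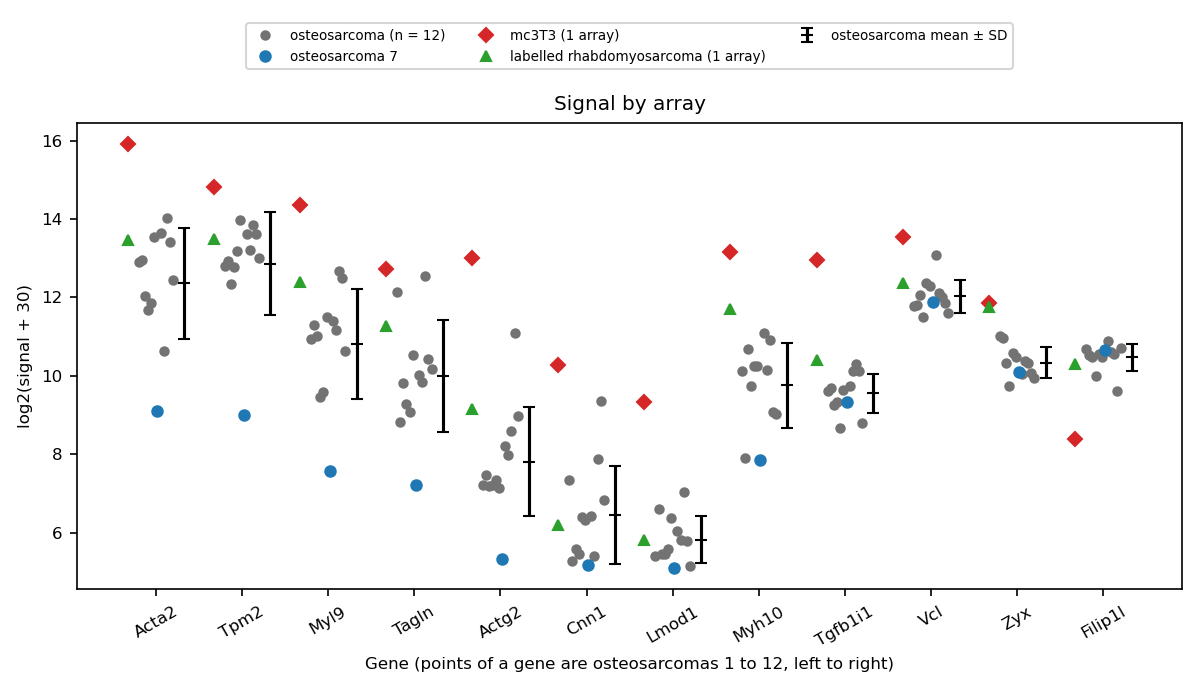
Values of 12 of the genes on the log2(signal + 30) scale, with 1 round point for each osteosarcoma (osteosarcoma 7 in blue), their mean and SD as a bar, and separate symbols for mc3T3 and the tumour labelled rhabdomyosarcoma. The mc3T3 signals of Acta2, Actg2 and Tgfb1i1 are 3.72, 3.78 and 6.43 times those of the highest osteosarcoma, while Filip1l in mc3T3 lies below all 12.

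Myl9, Mylk and Tagln were also higher in mc3T3 than in all 12 osteosarcomas, and none of these 3 passed the test. Myl9, the regulatory light chain, read 20968.1 in mc3T3 and 5372.1 in the tumour labelled rhabdomyosarcoma, and 161.7, 2169.25 and 6477.5 as the lowest, median and highest osteosarcoma. Its difference of -3.54 ± 1.28 missed the threshold (adjusted p = 0.0842, range over the alternatives 0.0301 to 0.273). Without osteosarcoma 7 the difference was -3.25 and passed (adjusted p = 0.0301). Mylk, the kinase that switches the light chain on, read 9907.8 in mc3T3 and 974.5 to 4738.9 in the osteosarcomas (median 2236.9). Its difference of -2.11 ± 0.68 had an adjusted p of 0.0531, and it passed in 9 of 23 alternatives (range 0.025 to 0.115). Those included leaving out osteosarcoma 3 (0.0478), 5 (0.0481), 10 (0.0363) or 12 (0.0482). Tagln, transgelin, an early marker of smooth muscle, read 6802.4 in mc3T3, but osteosarcomas 10 and 1 came close at 5988.4 and 4448.5, and its -2.74 ± 1.30 did not pass (adjusted p = 0.187).

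By the brightest probe set of each gene, Tpm2, caldesmon and smoothelin had their highest signal in the line and Tpm1 did not. None of these differences passed. Tpm2 read 28744.3 in mc3T3 against 483.9 to 16035.2 in the osteosarcomas (median 8709.3), a difference of -1.95 ± 1.20 (adjusted p = 0.317), and it passed without osteosarcoma 7, the tumour at 483.9 (-1.60, adjusted p = 0.0456). Tpm1 read 24764.1 in mc3T3, below osteosarcoma 6 at 33932.0, with a difference of -1.27 ± 0.76 (adjusted p = 0.304). Cald1, caldesmon, read 29716.3 in mc3T3 against 6062.9 to 18730.5 (-1.14 ± 0.44, adjusted p = 0.105) and passed without osteosarcoma 4, the lowest (-1.03, adjusted p = 0.0385). Smtn, smoothelin, read 1838.0 in mc3T3 against 305.8 to 1210.7 (-1.26 ± 0.56, adjusted p = 0.155). Among the 11 contractile genes tested, 3 were called lower (4.58% of all genes tested were) and 0 higher (8.59%), and the median difference was -2.74. The count and the median include Lmod1, which had to be lower through the filter.

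Myh11 and Myocd, the untested genes of the list, were dim on all arrays. Myh11, the smooth muscle myosin heavy chain, read 6.2 in mc3T3, 96.9 in the tumour labelled rhabdomyosarcoma and 7.8 to 145.7 in the osteosarcomas (median 36.85). Myocd, the cofactor that drives smooth muscle genes with Srf, read 2.6, 8.6 and 2.7 to 56.8 (median 34.7) in the same order. Signals this low could not be told from background, because no detection calls were used.

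Of the 5 nonmuscle genes, 1 was called lower (4.58% of all genes tested were) and 0 higher (8.59%), with a median difference of -0.89. Myh10, the heavy chain of nonmuscle myosin IIB, read 9158.1 in mc3T3 and 3295.1 in the tumour labelled rhabdomyosarcoma, and 200.6, 1100.4 and 2154.2 as the lowest, median and highest osteosarcoma. The line was 4.25 times the highest osteosarcoma and the difference was -3.41 ± 1.00 (adjusted p = 0.0351, range over the alternatives 0.0222 to 0.0509, the highest without osteosarcomas 6 and 9). Myh9, the heavy chain of nonmuscle myosin IIA, had nearly even signals, 12027.7 in mc3T3 against 6094.6 to 11928.8 (-0.51 ± 0.31, adjusted p = 0.317). Tpm4 (18732.1 in mc3T3, 7781.2 to 14590.2 in the osteosarcomas) and Cnn2 (22031.6, 5901.5 to 18426.0) differed by -0.89 ± 0.32 and -0.97 ± 0.44 (adjusted p = 0.0807 and 0.162). Tagln2 in mc3T3, at 4545.7, lay inside the osteosarcoma range of 2580.4 to 5711.2.

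Crosslinkers and focal adhesion genes held 4 of the 8 calls. Of the 8 genes of this role, 3 were called lower (4.58% of all genes tested were) and 1 higher (8.59%). Tgfb1i1, a paxillin-family adaptor of focal adhesions that also acts as a nuclear cofactor, gave the smallest adjusted p of the 32 genes. It read 7904.2 in mc3T3 and 1321.8 in the tumour labelled rhabdomyosarcoma. In osteosarcomas 1 to 12 it read 750.6, 802.4, 587.2, 621.8, 377.3, 762.9, 617.0, 833.0, 1093.4, 1230.1, 1087.9 and 418.1. The osteosarcomas spanned a 3.26-fold range, and the line stood 6.43 times above the highest of them. The difference was -3.40 ± 0.50 (adjusted p = 0.000372), and it passed in all 23 alternatives.

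Zyx, zyxin, which responds to tension at adhesions, read 3717.6 in mc3T3 against 829.0 to 2059.5 (median 1264.8), a difference of -1.54 ± 0.41 (adjusted p = 0.0228, range over the alternatives 0.0126 to 0.231). Its second probe set gave -0.18 ± 0.37, and the mean of both lost the call (-0.86, adjusted p = 0.118). Vcl, vinculin, which ties talin to actin, read 11850.9 against 2862.0 to 8718.2 (median 3924.0), a difference of -1.50 ± 0.44 (adjusted p = 0.0333, range 0.00516 to 0.13). Its call was lost with osteosarcomas 6 and 9 left out (adjusted p = 0.0508) and with the 6 osteosarcomas of m identifiers alone (0.13). Flnc, a filamin best known from muscle, read 1379.5 in mc3T3 against 25.2 to 859.1 (-2.83 ± 1.06, adjusted p = 0.095). It passed without osteosarcoma 6, its brightest tumour (-3.03, adjusted p = 0.0408).

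None of the widespread crosslinkers was called. Flna, Actn1 and Actn4 read 10733.1, 8608.4 and 8007.9 in mc3T3, each above all 12 osteosarcomas, with differences of -0.72 ± 0.36, -0.96 ± 0.38 and -0.58 ± 0.24 (adjusted p = 0.217, 0.11 and 0.131). Actn1 passed without osteosarcoma 8, the tumour at 8002.9 (-1.04, adjusted p = 0.0352).

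Filip1l, a relative of a filamin-binding protein, ran the other way and was the single gene of the 32 called higher in the osteosarcomas. It read 307.3 in mc3T3 and 1244.8 in the tumour labelled rhabdomyosarcoma. The osteosarcomas ran from 753.7 through a median of 1476.15 to 1864.1, all above the line. The difference was 2.08 ± 0.38, a 4.24-fold higher level (adjusted p = 0.00182, range over the alternatives 0.000263 to 0.0974, the highest with the 4 c osteosarcomas alone).

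None of the 7 LIM domain genes was called, with a median difference of -0.62. At an unadjusted p under 0.05 in limma the count among them was also 0, where 27.6% of all genes tested reached it. Fhl1, a LIM protein abundant in skeletal muscle, had the other positive difference, 2.71 ± 1.37 (adjusted p = 0.217). It read 414.0 in mc3T3 and ran from 397.5 in osteosarcoma 10 to 13440.6 in osteosarcoma 6. Lpp and Pdlim7, which sit in adhesions and on actin bundles, had mc3T3 signals of 9851.4 and 1951.7, each above all 12 osteosarcomas (highest 9765.6 and 1512.4), with differences of -1.02 ± 0.50 and -0.78 ± 0.38 (adjusted p = 0.205 and 0.203). Csrp1, Csrp2, Pdlim5 and Fhl2 in mc3T3 lay inside the osteosarcoma range. Srf itself read 1115.3 in mc3T3 against 505.9 to 1004.6, a difference of -0.62 ± 0.36 (adjusted p = 0.284).

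**Figure D3:**
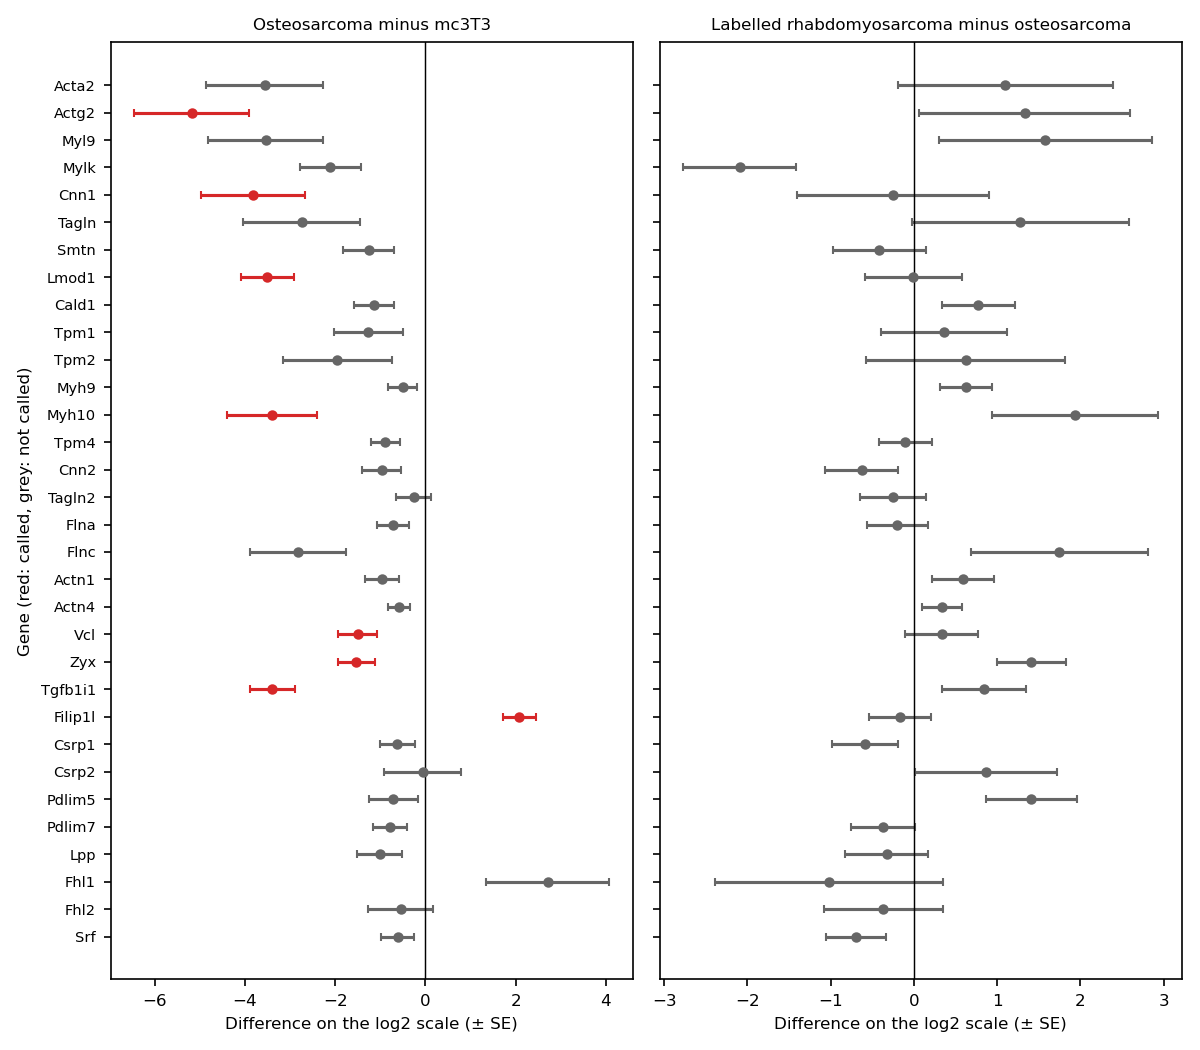
Differences of the 32 tested genes on the log2(signal + 30) scale with their standard errors, for the 12 osteosarcomas minus mc3T3 and for the tumour labelled rhabdomyosarcoma minus the osteosarcomas, with called genes in red. In the first comparison 30 of 32 differences are below 0 and 8 are called, and in the second 17 are above 0 and none is called.

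Among related genes outside the list, Mrtfa, an Srf cofactor, was lower in the osteosarcomas and read 2332.8 in mc3T3 against 356.1 to 1267.6 (-1.81 ± 0.45, adjusted p = 0.0148). The related cofactor gene Mrtfb differed by -0.00 ± 0.43. Of 22 genes for other actins and actin monomer handling, 0 were called in limma, although 2 were lower at an unadjusted p under 0.05. Actb, the beta-actin of all cells, read 57824.5 in mc3T3 against 32704.2 to 52405.7 (-0.55 ± 0.27, adjusted p = 0.21).

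Among 29 other focal adhesion genes 2 were higher (8.59% of all genes tested were) and 2 lower (4.58%), with a median of -0.13. Pdlim2 (-2.48 ± 0.51, adjusted p = 0.00487) and Ajuba (-1.93 ± 0.45, adjusted p = 0.0103) were lower, and Pdlim4 (3.38 ± 0.96, adjusted p = 0.0303) was higher. Of 17 other smooth muscle genes, 2 were called and both were higher in the osteosarcomas. These were Gucy1a1 and Gucy1b1, the subunits of the nitric oxide receptor, at 6.23 ± 0.84 and 4.15 ± 0.63 (adjusted p = 0.000166 and 0.000448). Of all genes tested, 8.59% were called higher. The median difference of the 17 was -0.12, and at an unadjusted p under 0.05 in limma 3 were higher and 2 lower.

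Lists of vessel and stromal cells moved with this comparison. The endothelial list stood at 6.221 in mc3T3 and 8.908 to 10.317 in the osteosarcomas. Of its 15 genes 13 were called higher, where 8.59% of all genes tested were. The pericyte list stood at 7.546 and 9.42 to 10.635, with 4 of 10 called higher, among them Abcc9 (6.75 ± 0.76, adjusted p = 4.01e-05) and Rgs5 (6.24 ± 1.31, adjusted p = 0.00537). Pdgfrb, Rgs4 and Anpep of the same list had negative differences that were not called (-0.76 ± 0.59, -0.42 ± 0.93 and -0.13 ± 0.48). The macrophage list stood at 6.257 and 12.019 to 13.699, with 12 of 12 called higher. The fibroblast list stood at 10.243 and 10.496 to 11.926, with 4 of 11 called higher. Of 10 osteoblast genes 6 were higher, and of 8 myogenic genes 1 was. Of 26 skeletal muscle and 4 keratinocyte genes 0 were called in limma, with 3 and 1 higher and 0 and 1 lower at an unadjusted p under 0.05. The part of these lists in the differences of the contractile genes was not tested.

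The tumour labelled rhabdomyosarcoma was compared with the same 12 osteosarcomas, so both comparisons share those arrays. None of the 32 genes was called in limma (2.95% of all genes tested were), and 3 had an unadjusted p under 0.05, Mylk, Zyx and Pdlim5, where 16.0% of all genes did. Of the 32 differences 17 were positive, with a median of 0.33 against 0.05 over all genes. This tumour lay above all 12 osteosarcomas for 7 genes, Myh9, Myh10, Cald1, Actn4, Zyx, Tgfb1i1 and Pdlim5, where 16.6% of all genes did. It lay below all 12 for 3, Mylk, Srf and Csrp1, where 14.1% of all genes did.

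Mylk read 511.3 in the tumour labelled rhabdomyosarcoma, under the lowest osteosarcoma at 974.5, while its substrate Myl9 read 5372.1, under osteosarcomas 10 and 11 and over the other 10. The differences were -2.09 ± 0.68 for Mylk (adjusted p = 0.127) and 1.58 ± 1.28 for Myl9 (adjusted p = 0.587). Zyx read 3409.9 against at most 2059.5 in an osteosarcoma (1.41 ± 0.41, adjusted p = 0.0885), and Pdlim5 read 5106.3 against at most 3947.8 (1.41 ± 0.55, adjusted p = 0.209). A second Zyx probe set and 1 other Pdlim5 probe set had the opposite sign. Myh10 read 3295.1 (1.94 ± 1.00, adjusted p = 0.363), above every osteosarcoma and below mc3T3. Acta2 read 11215.3, a level that 9 osteosarcomas were under and 3 were over.

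Among the other lists the tumour labelled rhabdomyosarcoma differed most in osteoblast genes, of which 9 of 10 were lower than in the osteosarcomas. Of 29 focal adhesion genes 1 was lower, Enah (-1.73 ± 0.38, adjusted p = 0.0226), which extends actin filaments, and of 10 pericyte genes 1 was lower, Anpep (-1.94 ± 0.48, adjusted p = 0.0437). Fap and Tnc were lower among 11 fibroblast genes (-4.95 ± 0.40 and -3.87 ± 0.65, adjusted p = 4.89e-06 and 0.00412), and Cdh15 among 8 myogenic genes (-4.50 ± 0.63, adjusted p = 0.00109). No gene of the actin, other smooth muscle, endothelial, skeletal muscle, macrophage or keratinocyte lists was called in limma, with 0, 4, 0, 0, 2 and 0 genes at an unadjusted p under 0.05.

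The spread among the osteosarcomas differed from gene to gene. The median SD of log2(signal + 30) over the 12 tumours was 1.25 for the 11 contractile genes tested, 0.37 for the nonmuscle set, 0.37 for crosslinkers and adhesion genes and 0.56 for LIM proteins. The SDs of single genes ran from 0.43 to 1.42, 0.26 to 1.08, 0.13 to 1.15 and 0.35 to 1.49 in the same order, so these ranges overlapped. Over all tested genes of the list the median SD was 0.531, with Cnn1 and Lmod1 included although their mean osteosarcoma signals were 106.63 and 31.82. It was 0.398 over the 9791 genes whose mean osteosarcoma signal reached 200, so these sets were not filtered alike. Actn4, an alpha-actinin of all cells, ran from 4716.9 to 6146.2, an SD of 0.13 that was larger than that of 0.1% of those genes. Fhl1 had the widest spread of the list, an SD of 1.49 that was larger than that of 98.2% of them, and Acta2, Tagln and Myl9 had SDs of 1.41, 1.42 and 1.39.

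Osteosarcoma 7 was the lowest of the 12 for 10 of 32 genes, where it was the lowest for 13.1% of all genes. The 10 were Acta2, Actg2, Cnn1, Tagln, Tagln2, Myl9, Myh10, Tpm2, Lmod1 and Fhl2, that is 7 of the 11 contractile genes tested and 3 others. Cnn1 at 6.5 (next lowest 9.1) and Lmod1 at 4.3 (next 5.4) were at the floor, so their ranks carry little weight. Actg2 was also near it at 10.4 (next 112.0). Its Acta2 signal of 522.1 was 14.7-fold under the median of the other 11, its Myl9 signal of 161.7 was 14.1-fold under it and its Tpm2 signal of 483.9 was 19.1-fold under it. Tagln read 118.5 there, against 426.4 to 5988.4 in the other 11. Its Flnc signal of 60.6 and its Tpm1 signal of 5910.4 were each the second lowest of the 12. Its Flna signal was 6267.3, its Vcl signal 3725.8, its Tpm4 signal 10074.2 and its Cald1 signal 12800.0, each inside the range of the others, and its Pdlim5 signal of 3947.8 was the highest of the 12.

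Osteosarcoma 7 also had the lowest fibroblast list of the 12, 10.496 against at least 11.412 in the others. Postn, a matrix protein of activated fibroblasts and osteoblasts, read 979.2 there against 9748.7 to 45706.9, and Lum read 383.3 against 2455.8 to 28452.3. Its macrophage (12.019), other smooth muscle (7.436, next 7.754) and keratinocyte (6.028, next 6.138) lists were also the lowest. Its osteoblast (13.353), pericyte (9.615) and endothelial (9.164) lists were inside the range of the others, and its beta-actin 3' to 5' ratio was 1.44. The part of these lists in its low contractile values was not tested.

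The highest signals were spread over several tumours. Osteosarcoma 10 was the highest of 12 for 7 genes, Acta2, Cnn2, Tagln, Myl9, Mylk, Lmod1 and Tgfb1i1, where it was the highest for 7.52% of all genes. It also had the highest endothelial (10.317) and pericyte (10.635) lists, whose part was not tested. Osteosarcoma 8 was the highest for a different 7, Myh10, Tpm4, Cald1, Vcl, Actn1, Filip1l and Lpp (7.86% of all genes), with Vcl at 8718.2 against at most 5240.9 in the others and Actn1 at 8002.9 against at most 5541.3. Osteosarcoma 1 was the highest for 5, Tagln2, Actn4, Zyx, Csrp1 and Pdlim7 (8.24% of all genes), and osteosarcoma 6 for 5, Tpm1, Tpm2, Flnc, Srf and Fhl1 (8.46%). Osteosarcoma 11 was the highest for 3 of 32, near its share of all genes, Actg2, Cnn1 and Csrp2 (6.82% of all genes). Its Cnn1 signal of 632.9 was 3.09 times that of the next tumour, and its Csrp2 signal of 11027.4 was 1.61 times. Osteosarcoma 4 was the lowest for 7, Cald1, Smtn, Flna, Flnc, Vcl, Zyx and Csrp1 (8.46% of all genes), although its Tpm4 and Cnn2 signals of 8587.3 and 11910.5 were not.

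The relation of each gene to Acta2 was measured over the 12 osteosarcomas. Of 31 genes compared, 25 had a positive Pearson r, with a median of 0.26 against 0.02 over all 11814 genes compared. None passed after adjustment over those genes by Pearson or Spearman, and no other gene did. At an unadjusted permutation p under 0.05, 5 of 31 were positive (2.08% of all genes) and 0 negative (2.41%). The 5 were Myl9, Tpm2, Tagln, Lmod1 and Cnn1, all contractile. Over the osteosarcomas Lmod1 read only 4.3 to 103.1 and Cnn1 had a median of 52.4. Signals this low could not be told from background, which limits both relations.

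Myl9 followed Acta2 most closely, with r = 0.84 (permutation p = 0.00138, adjusted p = 0.9634) and a Spearman coefficient of 0.85 (permutation p = 0.0009, adjusted p = 1.0). Without osteosarcomas 7 and 9, the 2 tumours farthest from the median Acta2 level, r was 0.88. Tpm2 had r = 0.83 (permutation p = 0.0019, adjusted p = 0.9634), a Spearman coefficient of 0.73 (p = 0.00968) and 0.80 without those 2. Tagln had r = 0.74 (permutation p = 0.00753, adjusted p = 0.9634), a Spearman coefficient of 0.69 (p = 0.01723) and 0.61 without those 2 (p = 0.06168), so its relation rests partly on them. Within the 6 osteosarcomas of m identifiers r was 0.60 for Myl9, 0.77 for Tpm2 and 0.65 for Tagln (exact permutation p = 0.2125, 0.08333 and 0.1486, the smallest possible being 0.00278). The c and o identifiers held 4 and 2 tumours, too few for a value, and the labels do not say what these letters mean.

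**Figure D4:**
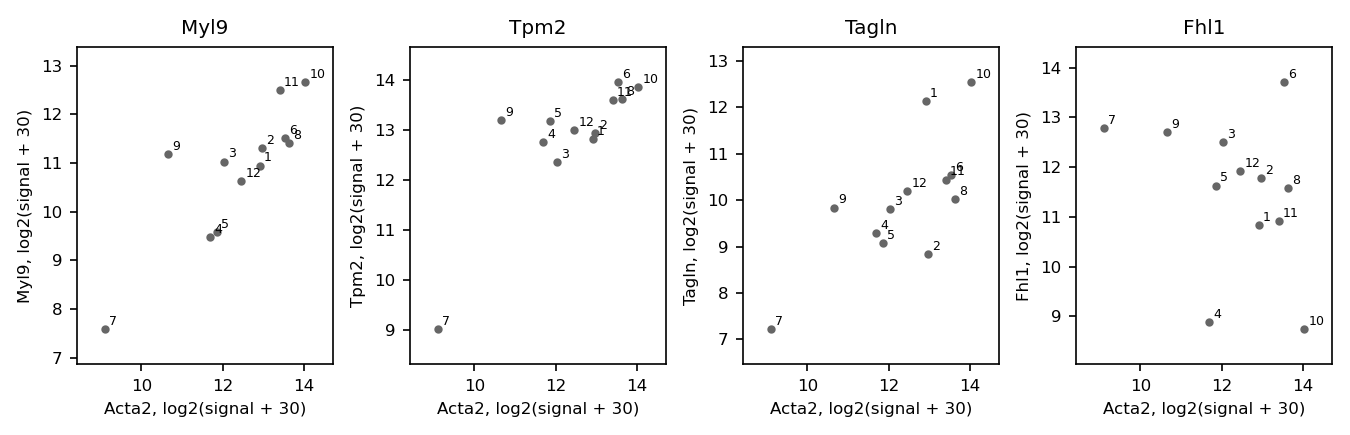
Acta2 against Myl9, Tpm2, Tagln and Fhl1 in the 12 osteosarcomas, all on the log2(signal + 30) scale, with tumours numbered. Pearson r is 0.84, 0.83, 0.74 and -0.33, and osteosarcoma 7 is the lowest tumour for Acta2, Myl9, Tpm2 and Tagln but not for Fhl1.

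The other genes had lower values of r. Actg2, the other smooth muscle actin, had r = 0.59 (permutation p = 0.05447, adjusted p = 0.9634; Spearman coefficient 0.43) and 0.40 without osteosarcomas 7 and 9. Mylk, Cald1 and Smtn had r = 0.34, 0.34 and 0.33, and Myh9 had 0.01. The lowest values were -0.35 for Pdlim5 and -0.33 for Fhl1. Smtn and Tgfb1i1 had r = 0.80 and 0.81 without osteosarcomas 7 and 9, and 0.33 each with them, so those values depend on the same 2 tumours.

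Outside the list, the 5 genes with the highest r, of 9761 genes whose mean osteosarcoma signal reached 200, were Rarres2 (0.85), Hnrnpa1 (0.83), Utp3, Lrg1 and Igfbp4 (0.81 each). Rarres2, which encodes the secreted protein chemerin, ran from 72.4 to 997.1 with a median of 421.4. Its permutation p was 0.0003 (adjusted p = 0.9634), its Spearman coefficient 0.93 (permutation p = 6e-05, adjusted p = 0.4726) and its r without osteosarcomas 7 and 9 was 0.93. Hnrnpa1, an RNA-binding protein, had r = 0.27 without them, so its relation rests on those 2 tumours.

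The levels of 12 gene lists and the beta-actin 3' to 5' ratio were set against Acta2, a family of 13 relations. None passed by Pearson or Spearman (smallest adjusted permutation p 0.55 and 0.832). The pericyte list had r = 0.03 (permutation p = 0.934; Spearman coefficient -0.01), the skeletal muscle list 0.13 (p = 0.686; Spearman coefficient 0.20) and the beta-actin ratio 0.23 (p = 0.477; Spearman coefficient 0.18). The fibroblast list had r = 0.49 with all 12 tumours (permutation p = 0.108, adjusted p = 0.55; Spearman coefficient -0.21) and -0.54 without osteosarcomas 7 and 9 (p = 0.107, adjusted p = 0.349), so its sign depends on them. The keratinocyte list had the highest r, 0.54 (permutation p = 0.0736, adjusted p = 0.55; Spearman coefficient 0.29), and -0.18 without them (p = 0.634, adjusted p = 0.758). The macrophage list had 0.30 (permutation p = 0.342, adjusted p = 0.731; Spearman coefficient -0.01) and -0.61 without them (p = 0.0636, adjusted p = 0.349), so the signs of these lists depend on the same tumours. The endothelial list had 0.45 (permutation p = 0.139, adjusted p = 0.55; Spearman coefficient 0.45) and 0.72 without them (p = 0.0152, adjusted p = 0.197).

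Osteosarcomas 6 and 9, with the highest skeletal muscle levels, were set against the other 10. Of the 32 genes, 5 in osteosarcoma 6 lay above all 10 (9.12% of all genes tested did) and 0 below (7.38%). In osteosarcoma 9, 2 lay above (6.72%) and 1, Actn4, below (5.04%), shares near those of all genes. Those above in both were Tpm1 and Flnc. Tpm1 read 33932.0 and 21557.2 there, 3.78 and 2.4 times the median of the other 10, and Flnc read 859.1 and 504.3, 8.21 and 4.82 times that median. Fhl1 read 13440.6 and 6615.4, 4.36 and 2.15 times the median of the other 10. Acta2 did not share this pattern, at 11827.9 and 1574.7, although Acta1, the skeletal muscle actin, read 46906.9 and 32288.0 in the same tumours against at most 12295.2 in the others.

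Probe sets of a single gene gave different answers in these tumours. A second Tpm1 probe set stood at 0.893 and 1.12 times the median of the other 10, and another at 18.6 and 12.5 times. The brightest Pdlim5 probe set stood at 0.88 and 0.834 times, a second at 25.6 and 6.2 times and another at 8.0 and 2.66 times. The brightest Tpm2 probe set stood at 2.0 and 1.18 times and another at 6.39 and 4.63 times. Tpm1, Tpm2 and Pdlim5 are each spliced into several muscle and nonmuscle forms. Which transcripts each probe set reads was not analysed here.

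**Figure D5:**
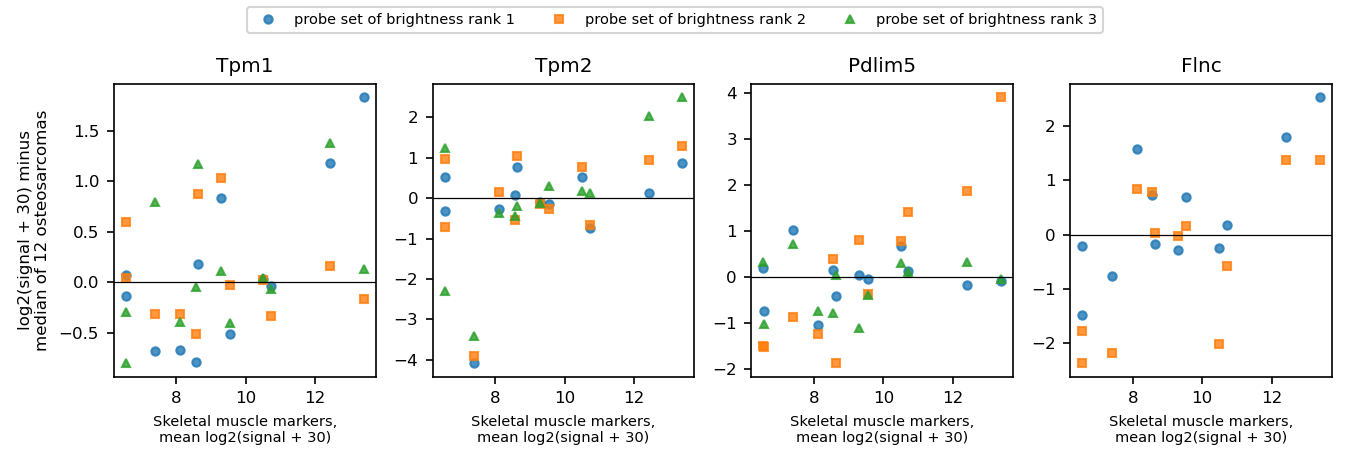
Up to 3 of the brightest tested probe sets of Tpm1, Tpm2, Pdlim5 and Flnc, as log2(signal + 30) minus the median of the 12 osteosarcomas, against the skeletal muscle list level (mean log2(signal + 30)) of each tumour. Osteosarcomas 6 and 9, at 13.402 and 12.423 on the horizontal axis, are high for the brightest Tpm1 and the second Pdlim5 probe set and not for the second Tpm1 and the brightest Pdlim5 one.

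In the comparison with mc3T3 the other probe sets mostly ran with the brightest. Of 38 other tested probe sets, from 16 of the genes, 35 had the sign of the brightest one and 2 had the opposite sign, 1 each of Lpp and Pdlim5. In 6 cases another probe set was called lower where the brightest was not called, 2 of Acta2 and 1 each of Csrp1, Myh9, Mylk and Tpm1, where 4.23% of all probe sets tested were called lower. The 2 of Acta2 passed the filter through mc3T3 alone, so that their direction was set by it, and the other 4 reached 200 in a tumour. The Mylk probe set differed by -2.34 ± 0.62 (adjusted p = 0.0245), the Tpm1 one by -3.32 ± 0.63 (0.00313), the Myh9 one by -1.87 ± 0.55 (0.0411) and the Csrp1 one by -1.64 ± 0.48 (0.0389). In 0 cases were probe sets of a gene called in opposite directions.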

How the data were processed

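Per the labels' protocols, column-purified total RNA was biotin-labelled and hybridised to Affymetrix arrays. The deposited table by the authors holds linear signal intensity per probe set, made with GCOS (per the submitters' processing notes); version, background step and probe summary: not given in the sources used here. Samples were grouped by title, since the description names mc3T3 for every sample, and osteosarcoma numbers only name samples.

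Arrays were rescaled to a trimmed mean (2% from each end) of 500, and log2(signal + 30) was analysed. Of 45101 probe sets, 34958 had 1 symbol, 932 several genes and 9211 none here; 34754 symbols were updated through Entrez identifiers. Probe sets reaching 200 on at least 1 array (22479) gave 11815 genes. limma 3.58.1 in R 4.3.3 (lmFit and eBayes, 3 groups, two-sided, 11 residual and 3.56 prior degrees of freedom, Benjamini-Hochberg over all genes) was used, and probe sets were fitted and adjusted separately. Correlations used 100000 two-sided permutations (all orders for 6 tumours; smallest possible p 1e-05 otherwise). Scripts were tested on simulated data. Beside the listed genes, the text names up to 3 called genes per other list and comparison, genes that define a cell type, and the 5 outside genes most correlated with Acta2. The genes, lists and tests were chosen with earlier results of these data known, and the 13 list relations after values had been seen. The highest correlation between arrays was 0.944, and none was dropped. The number of arrays limits the precision. The result of 1 gene list is not reported here.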

Additional observations from a re-analysis of the deposited data

How the results depend on the processing

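The 8 genes called against mc3T3 became 4 with the 4 c osteosarcomas alone, where 572 of all genes were called in place of 1556, and that fit has fewer samples. Leaving out 1 osteosarcoma gave 7 to 11 genes, with 11 without osteosarcoma 7, and the count stayed within 1.5 times in 23 of 24 alternatives. The count for the tumour labelled rhabdomyosarcoma was 0 in all 24 alternatives, and the count related to Acta2 was 0 in all 22, with 1 to 6 genes at an unadjusted p under 0.05. Some uncalled differences changed sign between settings, and the cause was not tested. Against mc3T3, Csrp2 was 0.06 without osteosarcomas 6 and 9, 0.56 with c osteosarcomas alone, and -0.211 to 0.12 without 1 osteosarcoma (above 0 without 6 or 8). For the tumour labelled rhabdomyosarcoma, Lmod1 was 0.085 with a pseudocount of 10, 0.046 with quantile normalization, 0.051 without osteosarcomas 6 and 9, 0.089 with c osteosarcomas alone, and -0.071 to 0.107 without 1 osteosarcoma. Tpm4 was 0.008 with quantile normalization and 0.043 with c osteosarcomas alone, Tpm1 -0.073 with m osteosarcomas alone, Pdlim7 0.131 with the mean over probe sets, Fhl2 0.127 with c osteosarcomas alone and Cnn1 -0.367 to 0.014 without 1 osteosarcoma (above 0 without 11). No paired analysis was possible because the labels give no replicate numbers that groups share. Lone arrays and low signals without detection calls limit every comparison.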
